A study of Mus musculus with 69 samples.

Results

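Cytochrome c oxidase, complex IV of the mitochondrial respiratory chain, is the enzyme that cyanide inhibits, and its nuclear-encoded subunits and assembly factors were followed in the mouse heart after cyanide exposure. A list of 33 genes was used, made up of 14 core subunits, 18 supercomplex and assembly factors, and Cycs, which encodes cytochrome c. Probe sets annotated to these symbols alone were taken from the array table, which gave 50 probe sets for 29 of the 33 genes, out of 17097 genes with such a probe set in the whole table. Of these, 46 probe sets for 28 genes, including 13 of the 14 core subunits, passed the filter on low values described next.

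The mice were CD-1 males, adult, of 20 to 35 g, and total RNA of the heart was measured on 69 Affymetrix arrays in 18 groups, 15 of 4 arrays and 3 of 3 arrays (saline at 2 h, saline at 4 h and KCN at 4 h). Awake mice received potassium cyanide (KCN, 8 mg/kg) or saline under the skin and hearts were taken after 1, 2, 4, 8 or 24 h, which gave 37 arrays. Other mice breathed hydrogen cyanide (HCN, 327 ppm) or air through the nose only and hearts were taken after 1, 2, 4 or 24 h, which gave 32 arrays. Each cyanide group was compared with the control group of its own route and time. The labels call the arrays of a group biological replicates, and each was treated as a separate mouse. Signals are log2 values, and testing was limited to the 26773 probe sets that exceeded 3.23 (the median group mean) in at least 1 group. Changes are differences of group means with their SE from limma, and a probe set was called when its Benjamini-Hochberg adjusted p over all 26773 was under 0.05.

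Complex IV takes electrons from cytochrome c and passes them to oxygen while pumping protons across the inner mitochondrial membrane. Its catalytic core is encoded by mitochondrial DNA and is surrounded by nuclear-encoded subunits, several of which have a form found widely and a form typical of heart and skeletal muscle. Assembly needs heme a, copper and chaperones that help to make and insert the core proteins, and cyanide binds the heme a3 and copper site where oxygen is reduced.

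The promoters of 4 members that were lower 2 h after HCN on at least 1 probe set are shown because nuclear genes of the respiratory chain are known for binding sites of the factors NRF1 and GABP. The sequences are from RefSeq on build GRCm38.p6, read 5′ to 3′ on the minus strand, and run from 150 bases before to 30 bases after the start of the gene. Capitals mark the GABP core CCGGAAG or its reverse complement.
Cox15, chr19:43752971-43753150: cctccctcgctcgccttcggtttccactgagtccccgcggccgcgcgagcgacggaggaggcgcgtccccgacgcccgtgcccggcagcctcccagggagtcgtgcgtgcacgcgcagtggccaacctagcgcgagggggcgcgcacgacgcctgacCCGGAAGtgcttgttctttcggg
Cox8a, chr19:7217587-7217766: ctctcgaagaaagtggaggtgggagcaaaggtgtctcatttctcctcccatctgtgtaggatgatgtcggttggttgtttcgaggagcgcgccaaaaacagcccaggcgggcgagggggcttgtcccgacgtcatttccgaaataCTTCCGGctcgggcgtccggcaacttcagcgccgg
Cox6a1, chr5:115348929-115349108: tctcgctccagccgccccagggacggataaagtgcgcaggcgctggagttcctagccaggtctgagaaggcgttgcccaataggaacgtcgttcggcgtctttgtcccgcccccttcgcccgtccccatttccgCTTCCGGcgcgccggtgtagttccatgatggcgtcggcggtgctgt
Cox7a2l, chr17:83514304-83514483: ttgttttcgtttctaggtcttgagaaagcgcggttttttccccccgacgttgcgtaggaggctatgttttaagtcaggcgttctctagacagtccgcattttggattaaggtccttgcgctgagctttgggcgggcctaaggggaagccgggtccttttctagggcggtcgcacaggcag

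Cox15, Cox8a and Cox6a1 hold the GABP core in the stretch shown, and Cox7a2l holds none of the motifs searched. These 4 are a choice from the members that were lower, and motifs were not compared with changes. Cox7c, also called lower at 2 h after HCN, held none of the motifs. Cox6b1, called higher there on its brightest probe set, held the GABP core. In windows of 300 bases (250 before to 50 after the start, both strands), the table held 27 promoters for 26 of the 33 genes. CCGGAAG was found in 11 of these 27 promoters (40.7%) and in 8.86% of all 32851 promoters of the table. The NRF1 core GCATGCGC was found in 2 (7.41%, Cox6a1 and Cycs) and in 2.71% of all, and its longer form with GC before it, which overlaps it, in 1 (3.7%, Cox6a1) and in 0.971%. The YY1 core ATGGCGG was found in 3 (11.1%) and in 4.05% of all. These matches describe letters in a window and not binding.

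Most of the genes gave signals well above the filter, while Cox4i2 (mean 3.39) and 1436149_PM_at of Cox5b (mean 3.05) lay near it. The median over the 46 probe sets was 10.40 for the mean log2 signal and 0.11 for the SD within groups, against 5.36 and 0.21 over all 26773 tested. Among the 4 probe sets that did not pass were the single probe set of Cox11 (mean 2.60), which helps to insert copper, and further probe sets of Cox5b, Cox16 and Cox17. Cox7b, Cox20 and Taco1 had no probe set named here, and Sco2 was named only on a probe set shared with Tymp (mean 2.71). In every group the 8 measured ventricular cardiomyocyte markers had a summed log2 signal between 15.87 and 16.26.

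Some arrays and groups differed in ways that run through the results. The 3′ to 5′ log2 ratio of the array's actin control, a measure of RNA integrity, was 1.22 ± 0.61 (SD, n = 4) in HCN at 2 h against 0.45 ± 0.14 in air (exact two-sided permutation p = 0.0571, 0.129 adjusted over 9 comparisons). It was 0.98 ± 0.25 in HCN at 24 h against 0.39 ± 0.04, 0.47 ± 0.13 in KCN at 24 h against 0.88 ± 0.09, and 0.48 ± 0.08 in KCN at 1 h against 0.84 ± 0.17 (exact permutation p = 0.0286 for each, the smallest that 4 against 4 allows, 0.0857 adjusted). The same ratio of the Gapdh control was 0.38 ± 0.34 in HCN at 2 h against -0.15 ± 0.02 in air. At 24 h after HCN it was 0.19 ± 0.08 against -0.03 ± 0.05 (exact permutation p = 0.0286 for each, 0.129 adjusted). The Gapdh ratio was 0.02 ± 0.07 in KCN at 24 h against 0.05 ± 0.06 in saline. In KCN at 1 h it was 0.04 ± 0.06 against 0.01 ± 0.05 (exact permutation p = 0.4 and 0.429, 0.551 adjusted for each). Of the 44 called changes in the 9 comparisons, 28 lost their call with this ratio as a covariate. Lung epithelial markers ranged from a summed log2 signal of 5.43 to 14.72 between arrays, and 4 of 5 were called higher in KCN at 1 h. Because whole hearts were measured, fewer cells of a type and less RNA per cell cannot be told apart. The signal distributions of the injection and inhalation arrays differed (median 95th percentile 9.24 and 9.52), so levels were set side by side only within a route.

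Few members differed from controls at most times, and most calls fell at 2 h after HCN and at 24 h after either route. After KCN for 1 h, 2 of the 46 probe sets were called (4.09% of all probe sets), 0 higher (1.57% of all) and 2 lower (2.52%). The 2 h count was 3 (6.59%), with 2 higher (3.29%) and 1 lower (3.3%), and the counts for 4 h and 8 h were 0 (2.26% and 0.336%). The 24 h count was 9 (11.9%), with 3 higher (6.79%) and 6 lower (5.13%). After HCN the 1 h and 4 h counts were 0 (2.68% and 7.35%). The 2 h count was 21 (25.3%), with 6 higher (8.79%) and 15 lower (16.5%), and the 24 h count was 9 (14.3%), with 5 higher (5.08%) and 4 lower (9.24%). As shares of the 46, these counts were 4.35%, 6.52%, 0%, 0% and 19.6% after KCN and 0%, 45.7%, 0% and 19.6% after HCN. The members vary less within groups than all probe sets (median SD 0.11 against 0.21), so smaller changes can be called. At 2 h after HCN the median absolute change was 0.18 in the 46 probe sets and 0.21 in all. A higher share of calls is therefore not read as a larger change. At the 4 comparisons with no call by limma, 8, 9, 8 and 1 probe sets (KCN at 4 h and 8 h, HCN at 1 h and 4 h) had an unadjusted p under 0.05.

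**Figure D1:**
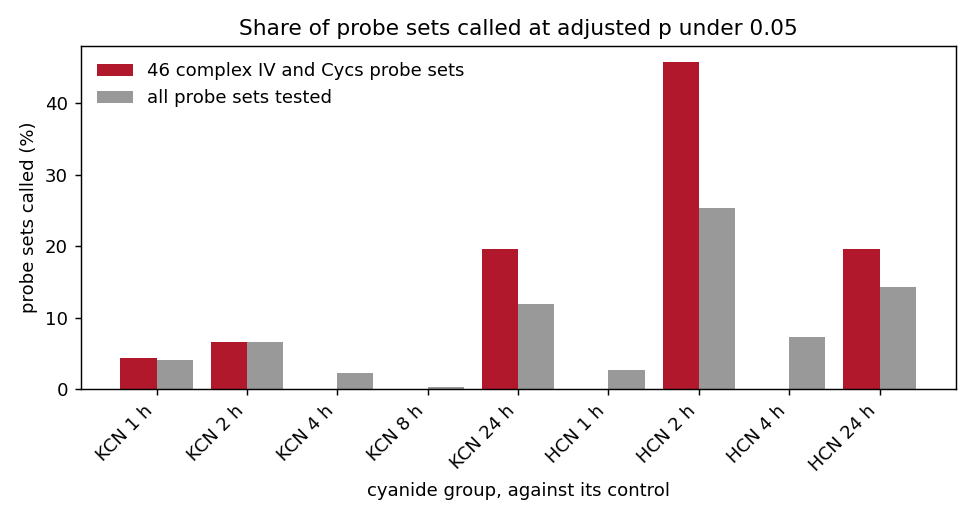
Bars give the percent of probe sets called at adjusted p under 0.05 in each cyanide group against its control, for the 46 complex IV and Cycs probe sets (red) and for all probe sets tested (grey). The red bar reaches 45.7% at 2 h after HCN, against 25.3% of all, and is at 0 in 4 of the 9 comparisons. The members vary less within groups than all probe sets, so the bars do not compare sizes of change.

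The changes of most members were small. Median changes of the 46 probe sets lay between -0.06 and 0.01 log2 units in the 9 comparisons, and those of all probe sets between -0.04 and 0.04. On the brightest probe set of each gene, the 95% confidence interval of the change lay within 1.5-fold either way for 28, 28, 23, 28 and 26 of 28 genes after KCN at 1, 2, 4, 8 and 24 h. It did so for 27, 24, 28 and 25 of 28 genes after HCN at 1, 2, 4 and 24 h. Cox4i1, the ubiquitous form of subunit 4, stayed within changes of -0.02 to 0.04, none called (lowest adjusted p = 0.523). Its signals at 2 h were 13.16, 13.11, 13.14 and 13.20 in air and 13.19, 13.13, 13.19 and 13.16 in HCN, so the groups overlapped. Cox4i2, its counterpart best known from lung, had group means of 3.03 to 3.63, close to the filter, and changes of -0.37 to 0.41, none called (lowest adjusted p = 0.122).

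**Figure D2:**
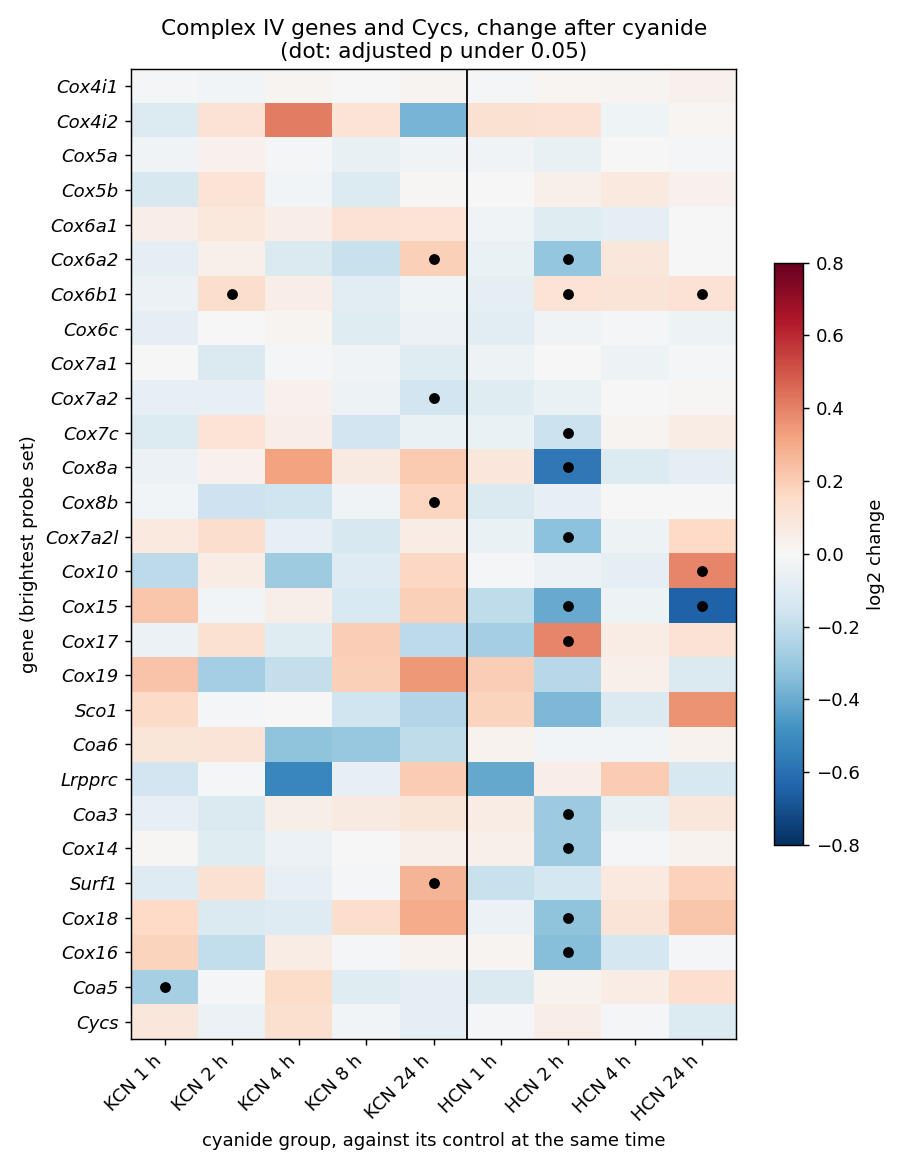
Colour gives the log2 change of each of the 28 genes (brightest probe set, rows) in each cyanide group against its control (columns, KCN left of the line and HCN right), and dots mark calls at adjusted p under 0.05. Most cells are pale, and 11 of the 28 genes carry a dot at 2 h after HCN.

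Among the core subunits at 2 h after HCN, 3 of the 13 representative probe sets fell (16.5% of all probe sets) and 1 rose (8.79%). Cox8a, the widely expressed form of subunit 8, read 10.50, 10.43, 10.50 and 10.61 in air and 9.89, 9.26, 10.38 and 10.23 in HCN (probe set 1448222_PM_x_at). The HCN arrays lay below the air arrays without overlap, and the lowest was replicate 2. The change was -0.57 ± 0.12 (SE, n = 4 and 4, limma adjusted p = 0.00016), and a further probe set of the gene changed by -0.75 ± 0.14 (adjusted p = 5.04e-05). Without HCN replicate 2 the changes were -0.34 and -0.43, and with the actin covariate they were -0.18 and -0.22, not called (adjusted p = 0.337 and 0.308).

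Cox6a2, the heart and muscle form of subunit 6A, read 13.07, 13.01, 13.00 and 12.97 in air and 12.66, 12.45, 12.86 and 12.85 in HCN at 2 h. The groups did not overlap, and the change was -0.31 ± 0.06 (limma adjusted p = 3.21e-05). The call of Cox6a2 was lost with the actin covariate (-0.15, adjusted p = 0.109), without HCN replicates 1 and 2 (-0.16, 0.0555) and when just these groups were fitted (0.0576). Its widely expressed counterpart Cox6a1 changed by -0.10 on its brightest probe set, not called, and by -0.52 ± 0.11 on 1417418_PM_s_at (adjusted p = 0.000218; -0.33 without HCN replicate 2, and -0.27, not called, with the actin covariate). Cox7c fell by 0.17 (adjusted p = 0.00917), and Cox6b1, which joins the monomers of the enzyme at the side facing cytochrome c, rose by 0.11 (0.0302), though its other probe set changed by -0.02. With the actin covariate neither was called (-0.08 for Cox7c and 0.05 for Cox6b1, adjusted p = 0.452 and 0.561). Cox7a1 and Cox8b, the muscle forms of subunits 7A and 8, changed by 0.00 and -0.07 and were not called.

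Assembly factors were among the genes that fell at 2 h after HCN. Of the 6 measured genes for synthesis and maturation of the mitochondrially encoded core proteins, 4 fell (16.5% of all probe sets): Coa3 by 0.29, Cox14 by 0.29, Cox18 by 0.32 and Cox16 by 0.34 (limma adjusted p = 0.0342, 0.00332, 0.0176 and 0.00168). Coa3 and Cox14 act together in the making of the Cox1 protein, Cox18 inserts part of Cox2 into the membrane, and Cox16 acts in Cox2 assembly. Surf1 (-0.14) and Lrpprc (0.05), which stabilises mitochondrial messenger RNA, were not called. With the actin covariate the 4 calls were lost, at -0.07 for Coa3, -0.11 for Cox14, -0.37 for Cox18 and -0.12 for Cox16 (adjusted p = 0.783, 0.486, 0.0517 and 0.45). Without HCN replicates 1 and 2, Cox18 was called (-0.46, 0.00699) and Coa3 (-0.14), Cox14 (-0.13) and Cox16 (-0.18) were not. Without HCN replicate 2 alone the changes of Coa3 and Cox14 were -0.16 and -0.18. The call of Cox18 was lost when any of 5 of the 8 arrays was left out, that of Coa3 for 3 and that of Cox14 for 1.

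Cox7a2l, a factor for joining complex IV to complex III, read 10.78, 10.77, 10.96 and 10.74 in air and 10.61, 10.47, 10.46 and 10.39 in HCN at 2 h. The groups did not overlap, and it fell by 0.33 ± 0.06 (limma adjusted p = 5.07e-05, and -0.33 and 0.00311 with the actin covariate). On its other probe sets Cox7a2l changed by -0.22 (1432263_PM_a_at), called, and by -0.04 (1421772_PM_a_at), not called. At 24 h after HCN these 2 probe sets were called higher, by 0.21 and 0.31. At 24 h after KCN 1421772_PM_a_at was called lower, by 0.24. With the actin covariate these 24 h calls were lost (0.12, 0.21 and -0.17, adjusted p = 0.571, 0.157 and 0.141). Cox17, the copper chaperone that feeds Sco1, read 11.19, 11.26, 11.26 and 10.99 in air and 11.72, 11.76, 11.28 and 11.49 in HCN and rose by 0.39 ± 0.11 (0.00524). The call of Cox17 was lost with the actin covariate (0.25, adjusted p = 0.231) and without HCN replicates 1 and 2 (0.21, 0.287). Sco1, which passes copper on to Cox2, changed by -0.36 and was not called.

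The brightest probe set of Cycs changed by 0.05, not called, and 1422484_PM_at rose by 0.27 ± 0.07 (limma adjusted p = 0.00168). That probe set read 11.92, 11.94, 12.05 and 11.87 in air and 12.16, 12.30, 12.19 and 12.24 in HCN, without overlap. In all, 21 of 46 probe sets were called at this time, 6 higher and 15 lower. The count was 8 with the actin ratio as a covariate (11.3% of all probe sets), 4 when just these groups were fitted (7.22%), and 11 without HCN replicates 1 and 2, of actin ratio 1.49 and 1.95 (12.2%). The last alternative was added after the data were seen. Of the 21 calls, 6 were kept with the covariate, which were those of Cycs, Coa6, Cox6c and Cox7a2l (2 probe sets) and 1 of Cox5a. When just these groups were fitted 4 were kept, of Cycs, Cox7a2l, Cox6c and Cox15. Without replicates 1 and 2, 9 were kept and 12 lost: the kept calls were the 6 named with the covariate, Cox18 and 2 probe sets of Cox15. Of other cell types at this time, 2 of 4 neutrophil, 2 of 5 fibroblast, 2 of 5 macrophage, 1 of 3 pericyte and 1 of 3 fat markers were higher. Lower were 2 of 5 endothelial, 1 of 4 lymphocyte and 1 of 4 skeletal muscle markers, and of 8 ventricular cardiomyocyte markers 1 was higher and 1 lower. Their part in the result was not tested.

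Cox15, which makes heme a from heme o, had the largest change of the 46 probe sets in the 9 comparisons, at 24 h after HCN. Its probe set 1460376_PM_a_at read 6.20, 6.30, 6.30 and 6.14 in air and 4.06, 4.59, 4.04 and 4.94 in HCN. The groups did not overlap, and the change was -1.83 ± 0.22, or 3.55-fold lower (limma adjusted p = 2.65e-08). The other probe sets of the gene read 7.52, 7.49, 7.86 and 7.63 in air and 6.98, 6.85, 6.83 and 7.25 in HCN on 1426693_PM_x_at, and fell less, by 0.65 ± 0.15 (0.00196) and, on 1452146_PM_a_at, by 0.60 ± 0.15 (0.00432).

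At 2 h after HCN the same 1460376_PM_a_at read 5.65, 6.27, 6.33 and 5.25 in air and 4.20, 4.16, 4.64 and 5.25 in HCN. Cox15 changed there by -1.31 ± 0.22 on this probe set (limma adjusted p = 1.65e-05), with groups that overlapped at their nearest arrays, and by -0.40 on its brightest (0.0477), a call lost when any of 6 of the 8 arrays was left out. At 1 h and 4 h it changed by 0.11 and -0.17, not called, and after KCN its changes lay between -0.28 and 0.63, none called. Adjusted for the actin ratio, the 24 h change of this probe set was -1.19 (adjusted p = 0.000135), the other 2 Cox15 probe sets were not called (-0.51 and -0.58, adjusted p = 0.113 and 0.0648), and the 2 h changes were -0.49 on this probe set and -0.23 on the brightest (0.151 and 0.491).

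**Figure D3:**
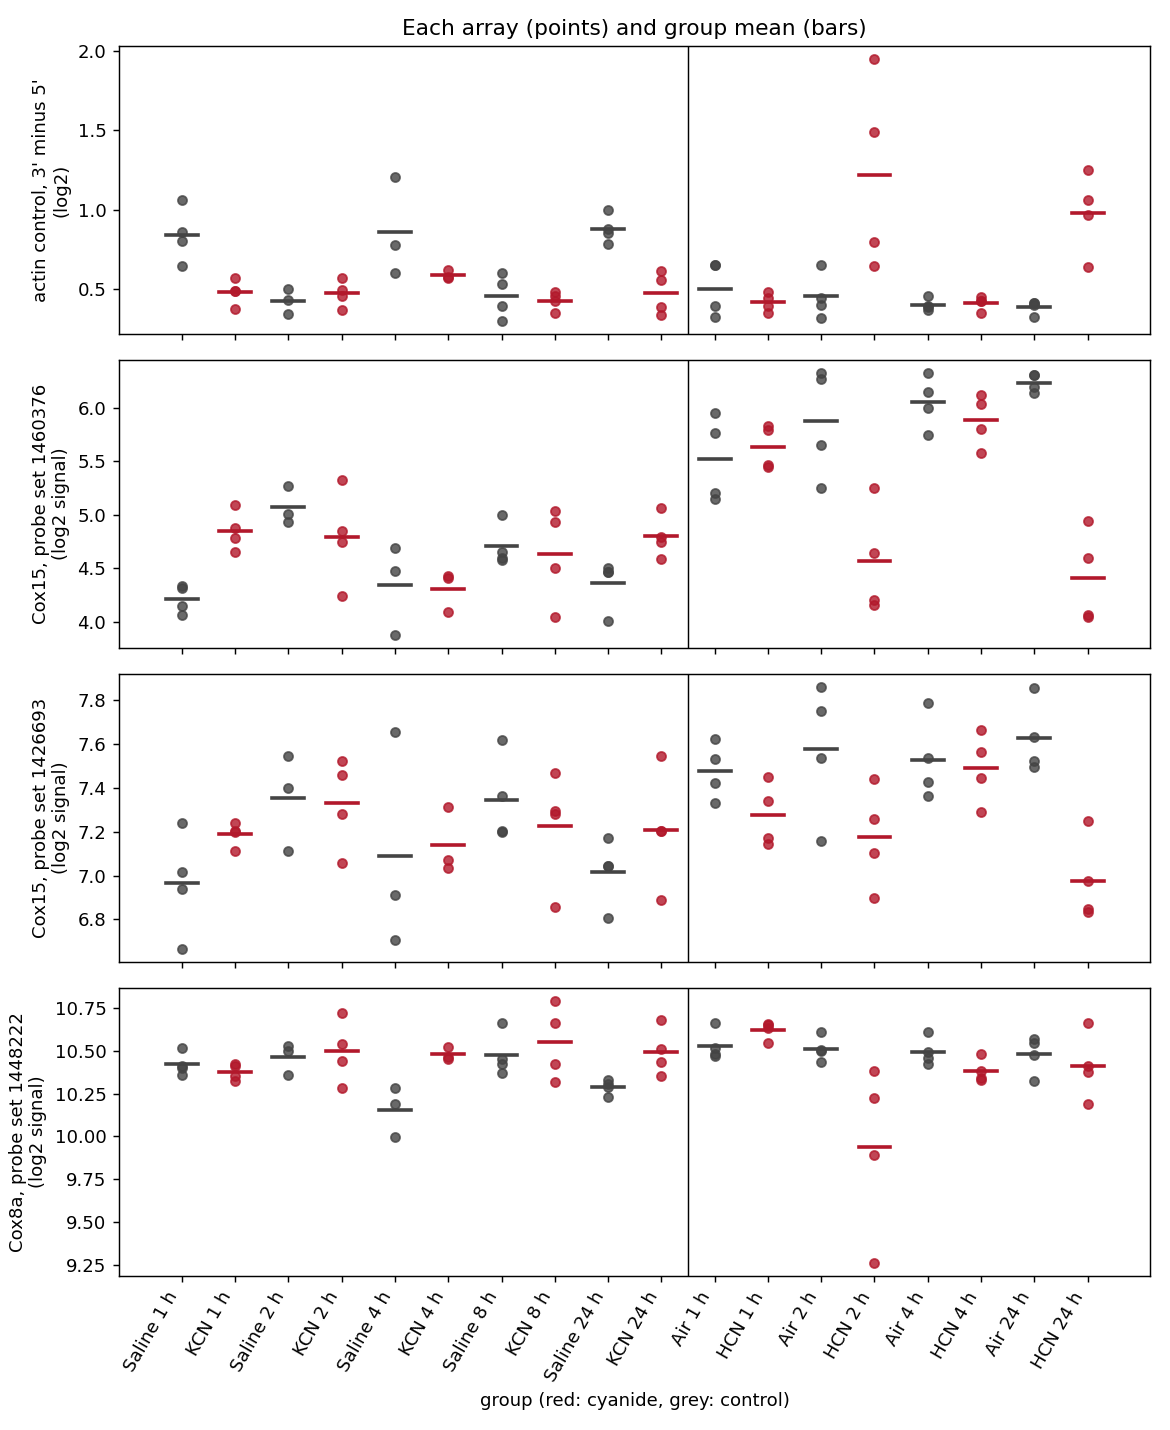
Points are single arrays and bars group means, in red for cyanide and grey for control, for the log2 actin 3′ to 5′ ratio (top) and the log2 signals of Cox15 on 2 probe sets and Cox8a. Cox15 reads 4.04 to 4.94 on 1460376_PM_a_at in HCN at 24 h against 6.14 to 6.30 in air, and the actin ratio averages 1.22 and 0.98 in HCN at 2 h and 24 h.

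Cox10, which makes heme o, the step before Cox15, rose at 24 h after HCN. It read 8.21, 8.15, 8.32 and 8.12 in air and 8.63, 8.55, 8.68 and 8.50 in HCN, without overlap, a change of 0.39 ± 0.14 (limma adjusted p = 0.0458). The call was lost when any of 7 of the 8 arrays was left out, and with the actin covariate (0.32, adjusted p = 0.351). Cox6b1 rose by 0.11 (0.0436), a call lost when any of 6 of the 8 arrays was left out, with the actin covariate (0.06, adjusted p = 0.558) and when just these groups were fitted (0.0687). Sco1 (0.36), Surf1 (0.18) and Lrpprc (-0.13) were not called. The 18S control read 12.60 ± 0.07 in HCN at 24 h and 12.94 ± 0.13 in air, without overlap. Of other cell types, 1 of 3 pericyte markers was higher, and 1 of 5 endothelial, 1 of 5 macrophage, 1 of 4 skeletal muscle and 1 of 8 ventricular cardiomyocyte markers were lower. The part of these in the result was not tested.

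At 24 h after KCN, 2 of 13 core subunits rose (6.79% of all probe sets) and 1 fell (5.13%) on their representative probe sets. Cox6a2 read 12.46, 12.56, 12.50 and 12.64 in saline and 12.80, 12.67, 12.80 and 12.66 in KCN, and rose by 0.19 ± 0.06 (limma adjusted p = 0.0158). Cox8b read 12.46, 12.53, 12.61 and 12.46 against 12.70, 12.63, 12.69 and 12.72, and rose by 0.17 ± 0.05 (0.0277). Neither pair of groups overlapped, and the calls were lost when any of 3 and any of 5 of the 8 arrays was left out. Cox7a2, the widely expressed form of subunit 7A, fell by 0.16 ± 0.04 (0.00275) on its brightest probe set and changed by 0.01 on its other, and its muscle form Cox7a1 changed by -0.10, not called.

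Surf1, which acts early in assembly of the Cox1 core, rose at 24 h after KCN. It read 8.17, 8.27, 8.25 and 8.32 in saline and 8.60, 8.42, 8.50 and 8.57 in KCN, without overlap, a change of 0.27 ± 0.07 (limma adjusted p = 0.00726). With the actin covariate Surf1 changed by 0.33 (0.00238) and Cox7a2 by -0.14 (0.0181), while Cox6a2 and Cox8b were no longer called (0.11 and 0.10, adjusted p = 0.203 and 0.257). The summed log2 signal of 4 brown fat markers, a tissue that also expresses muscle forms of these subunits, was 9.48 to 11.55 in KCN at 24 h and 8.54 to 9.78 in saline. None of the 3 tested brown fat markers was called at 24 h, and 3 of 3 were higher when KCN was averaged over its times. Other markers were called at 24 h. Higher were 2 of 5 macrophage, 1 of 5 fibroblast, 1 of 5 endothelial and 1 of 3 fat markers, and of 8 ventricular cardiomyocyte markers 1 was higher and 1 lower. The 18S control read 12.55 ± 0.16 in KCN and 12.90 ± 0.06 in saline, without overlap. The part of these in the result was not tested. Without saline replicate 1, 5 of the 46 probe sets were called at 24 h after KCN.

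At the early times after KCN the called genes were Coa5 and Cox6b1 on their brightest probe sets. Coa5, an assembly factor, read 10.46, 10.39, 10.40 and 10.27 in saline and 10.15, 10.11, 9.98 and 10.22 in KCN at 1 h, without overlap, and fell by 0.26 ± 0.08 (limma adjusted p = 0.0405). The call was lost when any of 6 of the 8 arrays was left out and with the actin covariate (-0.21, adjusted p = 0.163), and the gene's other probe set changed by 0.29. Cox6b1 read 12.73, 12.70 and 12.53 in saline and 12.81, 12.81, 12.80 and 12.76 in KCN at 2 h, without overlap, and rose by 0.14 ± 0.04 (0.0302; 0.08 without saline replicate 3). When just these groups were fitted it was not called (adjusted p = 0.268). The 18S ribosomal control read 10.82 ± 0.49 (SD, n = 3) in saline at 2 h and 12.55 ± 0.07 (n = 4) in KCN, and its part in the result was not tested.

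Different probe sets of the same gene often disagreed. Of the 13 genes with several probe sets, 10 had at least 1 called at 2 h after HCN, and in 2 all were called in the same direction. At 24 h the counts were 5 and 1 after HCN and 5 and 0 after KCN, and no gene had opposite calls in any of the 9 comparisons. Cox5a, a subunit at the matrix side, read 12.74, 12.47, 12.49 and 12.57 in saline and 12.11, 12.17, 12.13 and 12.12 in KCN at 24 h on 1415933_PM_a_at, a change of -0.43 ± 0.07 (limma adjusted p = 5.25e-06). A further probe set of Cox5a, 1439267_PM_x_at, was also called lower, by 0.29 (-0.31 with the actin covariate, limma adjusted p = 0.00707). On its brightest probe set the gene changed by -0.03. At 2 h after HCN 1415933_PM_a_at and 1439267_PM_x_at were called higher, by 0.21 and 0.24. With the actin covariate the first lost this call and the second kept it (limma adjusted p = 0.0508 and 0.0349). When just these groups were fitted neither was called (0.0573 and 0.0528).

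Cox6c, a small subunit, behaved alike: on 1434491_PM_a_at it changed by -0.44 at 2 h and -0.47 at 24 h after KCN and by 0.60 ± 0.11 at 2 h after HCN (limma adjusted p = 0.0152, 0.00221 and 3.82e-05). The 2 h call after KCN was lost when just these groups were fitted (0.117). That probe set read 10.93, 10.98, 11.09 and 10.28 in air and 11.52, 11.56, 11.29 and 11.33 in HCN at 2 h, with air replicate 4 below the rest. Its brightest probe set changed by -0.10 to 0.02 over the 9 comparisons. Coa6, a copper delivery factor, changed on its weaker probe set by -0.66 at 24 h after KCN and by 0.73 at 24 h after HCN (0.0148 and 0.00467) while its brighter was not called. With the actin covariate neither Coa6 change was called (-0.51 and 0.50, adjusted p = 0.095 and 0.232). Coa5 changed by -0.67 on its other probe set at 24 h after HCN (0.00141) and by 0.13 on its brightest.

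**Figure D4:**
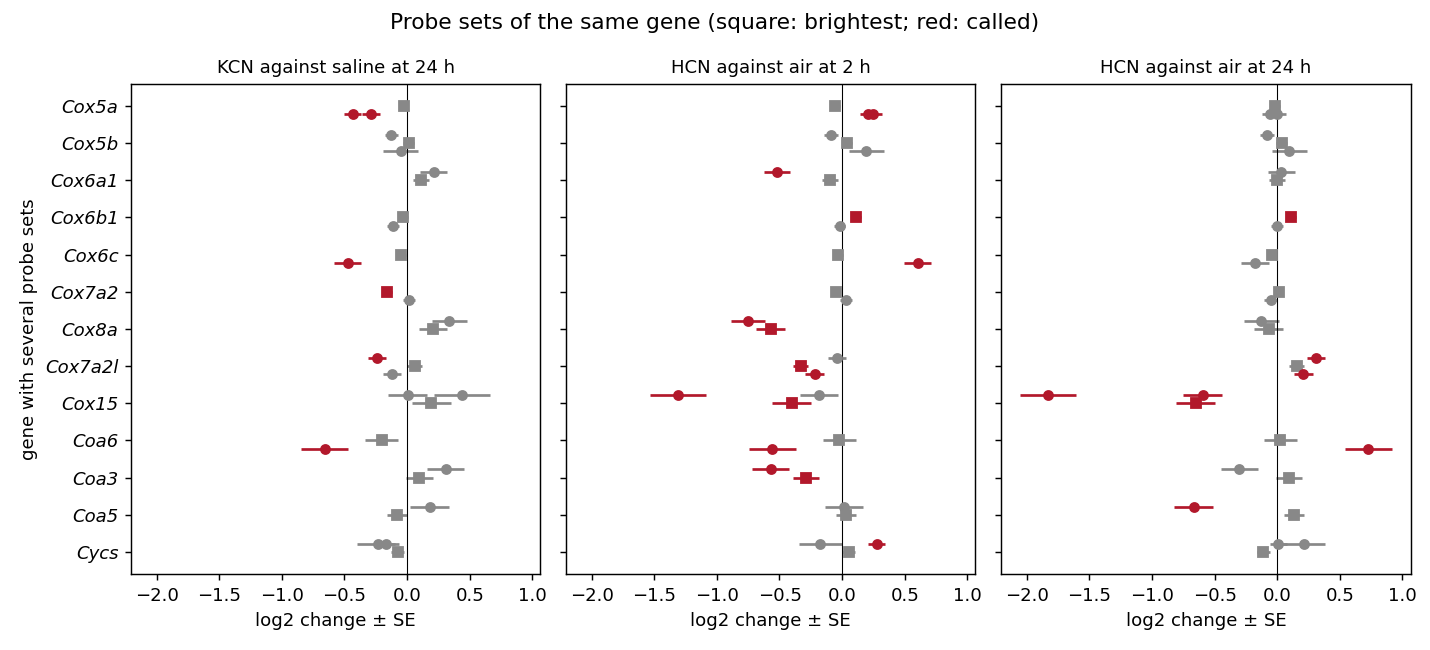
Each mark is the log2 change ± SE of a probe set of the 13 genes with several, at 24 h after KCN (left), 2 h after HCN (centre) and 24 h after HCN (right), with squares for the brightest probe set and red for calls. For Cox5a and Cox6c the square lies near 0 at 24 h after KCN and 2 h after HCN, where other probe sets of the gene are called.

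The routes were compared at the 4 times they share, as the HCN change minus the KCN change. The 1 h test called none of the 46 probe sets (0.198% of all probe sets), the 2 h test 10 (5.73%), the 4 h test 1 (1.87%) and the 24 h test 11 (18.8%). By limma, 1 probe set had an unadjusted p under 0.05 at 1 h. At 2 h, Cox6c on 1434491_PM_a_at differed by 1.04 (limma adjusted p = 0.000165) and Cox7a2l by -0.47 (0.0013). The 2 h test includes the saline group of low 18S control (10.82 ± 0.49), and the part of this was not tested. At 24 h, Cox15 differed by -2.27 on 1460376_PM_a_at (6.34e-07) and Coa6 by 1.39 (0.000112). Lrpprc differed at 4 h by 0.73 (0.0475), with 9.06, 8.96 and 9.03 in saline and 8.37, 8.67 and 8.44 in KCN, a change of -0.52 that was not called (0.0563), and the difference lost its call when any of 11 of 14 arrays was left out. With the actin covariate 5 differed at 2 h and 2 at 24 h, and without HCN replicate 2 5 differed at 2 h. The shares of all probe sets in these fits are not given, so the lower counts are not read as particular to the members.

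Averaged over times, 6 of 46 probe sets differed after KCN (9.51% of all), 1 higher (5.07%) and 5 lower (4.44%), and 9 after HCN (21.5%), 1 higher (7.39%) and 8 lower (14.1%). On the brightest probe set of each gene, the 95% interval of the average lay within 1.5-fold for each of the 28 genes on both routes. Of the 46 probe sets, 46 did so after KCN and 45 after HCN, where the lowest average change was -0.80. In the KCN average 3 of 3 brown fat, 3 of 3 white and brown fat, 4 of 5 lung epithelial and 4 of 5 macrophage markers were higher. So were 1 of 5 fibroblast and 1 of 3 smooth muscle markers. In the HCN average none of the fat or lung epithelial markers was called. The part of these in the result was not tested. Control groups of different times also differed. Saline at 2 h had 3 arrays and an 18S control of 10.82 ± 0.49, against group means of 12.68 to 12.90 at the other saline times. Its part in the result was not tested. The representative probe sets of 16 of 28 genes differed among saline groups, and 26 of 46 probe sets did (38.3% of all). Cox8b had group means from 12.51 at 24 h to 12.85 at 2 h (limma F test, adjusted p = 9.1e-05), and Coa6 ranged over 0.80, lowest at 2 h. Among air groups 9 of 46 probe sets differed (16.7%), with Surf1 from 8.55 at 24 h to 8.91 at 2 h (0.000323).

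Other genes of the pathway were looked at beside the members. Percentages in brackets are of all probe sets called in the same direction. Changes with the actin covariate or with arrays left out were not taken for these genes. Of 19 further complex IV genes 13 were measured. Cmc1 (0.45) and Coa8 (0.34) rose at 1 h after KCN (2 of 13, 1.57%), and Coa7 (0.42) at 2 h (1 of 13, 3.29%). Higd2a (0.34) and Coa8 (0.32) rose at 24 h (2 of 13, 6.79%). Hccs, which attaches heme to cytochrome c, then fell by 0.38 (1 of 13, 5.13%). After HCN, Cmc1 rose by 0.34 at 2 h (1 of 13, 8.79%) and Coa8 fell by 0.33 at 24 h (1 of 13, 9.24%). Of 10 regulators of respiratory genes 9 were measured. Nrf1 and Esrra, transcription factors for nuclear respiratory genes, fell at 2 h after HCN by 0.66 and 0.72 (limma adjusted p = 0.00142 and 6.05e-05). These were 2 of 9, against 16.5% of all probe sets. Gabpa fell by 0.34 at 4 h (0.0354), 1 of 9, where 7.35% of all were called in either direction. At 24 h after KCN, Esrrg fell by 0.43 and Tfb2m, a mitochondrial transcription factor, by 0.52 (limma adjusted p = 0.000914 and 4.29e-05). These were 2 of 9, against 5.13% of all. Esrrg also fell at 1 h, by 0.31 (0.0334), 1 of 9 against 2.52%.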

How the data were processed

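RNA from mouse heart was measured on Affymetrix arrays. The deposited values, one per probe set and array, are on a log2 scale, judged from their range of 1.83 to 13.94. The submitters' processing notes name MAS5, without a version, and what it was used for and how the arrays were normalized is not given in the sources used here. Of 45141 probe sets, 104 controls were left out, and 26773 with a group mean above 3.23 were tested. limma 3.58.1 in R 4.3.3 was fitted to all 18 groups with eBayes and an intensity trend (51 residual degrees of freedom), with Benjamini-Hochberg adjustment in each comparison. The procedure was also run on simulated data, drawn as independent normal values with the same spread in every group. These hold no differences in RNA quality and no outlying arrays, so the run does not bear on either. Genes were named through the array's annotation, and probe sets with several symbols were not used. The probe set with the highest mean over all arrays stood for its gene. Named were called genes (up to 4 per direction by p), isoform pairs and core assembly genes, and other probe sets where they disagreed. The members and lists were chosen with earlier results of these data known. Alternatives were other normalizations, filters and fits, a replicate block, the actin ratio as a covariate and each array left out. The number of arrays limits the precision.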

Additional observations from a re-analysis of the deposited data

Results flagged for a closer look

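In all, 100 sets of 4 arrays were examined, for called probe sets and, in the 15 groups of 4 arrays, for the actin ratio. Of these, 5 held an array apart from the others, and chance alone gives about 5%. Cox7a2l read 10.58 in saline 1 h replicate 1 (others 10.43 to 10.45), 10.96 in air 2 h replicate 3 (others 10.74 to 10.78) and 9.92 in air 24 h replicate 2 (others 10.03 to 10.04), on different probe sets. Cox6c read 10.44 in KCN 2 h replicate 4 (others 10.85 to 10.90), and Coa3 read 9.55 in HCN 2 h replicate 2 (others 9.99 to 10.07).

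The change differed between routes for 22 probe sets, tested as the HCN change minus the KCN change with limma. At 2 h the differences were 0.40 for Cox5a, -0.53 for Cox6a1, -0.35 for Cox6a2, 1.04 for Cox6c, -0.28 for Cox7c, -0.60 and -0.78 for Cox8a, -0.47 and -0.42 for Cox7a2l and -0.69 for Coa3. At 4 h the difference was 0.73 for Lrpprc. At 24 h they were 0.38 and 0.29 for Cox5a, 0.17 for Cox7a2, 0.55 and 0.33 for Cox7a2l, -0.84, -0.60 and -2.27 for Cox15, 1.39 for Coa6, -0.61 for Coa3 and -0.85 for Coa5.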

How the results depend on the processing

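Counts in this section are of the 46 probe sets called. The shares of all probe sets under each setting are not given beside them, so a changed count is not read as particular to the members. With the actin ratio as a covariate they were 0 in KCN at 1 h, 2 in KCN at 4 h, 8 in HCN at 2 h, 2 in HCN at 24 h, 1 in the HCN average, and 5, 2 and 2 for the route differences at 2, 4 and 24 h. In a fit of only the groups compared they were 1 in KCN at 1 h, 0 in KCN at 2 h, 1 in HCN at 1 h and 4 in HCN at 2 h. A fit of each route gave 0, 1 and 1 in KCN at 1 h, KCN at 2 h and HCN at 1 h. Median centring, no filter and eBayes without trend each gave 0 in KCN at 1 h and 0 for the difference at 4 h. Quantile normalization and a stricter filter each gave 1 in KCN at 4 h. Leaving out the HCN 2 h arrays with actin ratios of 1.49 and 1.95, added after the data were seen, 11 were called. The cause of these changes was not tested. Of 34 same-numbered pairs of cyanide and control arrays, 9 correlated above 0.1 in their deviations from group means (r from -0.14 to 0.32). Pairs of different numbers were not looked at, so whether replicate numbers pair the arrays is not settled. With the replicate block 1 was called in KCN at 1 h.

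Leaving out each array in turn gave 0 to 2 in KCN at 1 h, 1 to 4 at 2 h, 0 to 0 at 4 h and at 8 h, and 5 to 9 at 24 h (5 without saline replicate 1). It gave 0 to 1, 16 to 20, 0 to 1 and 6 to 8 in HCN at 1, 2, 4 and 24 h, 4 to 8 and 6 to 11 for the KCN and HCN averages, and 0 to 0, 5 to 11 (5 without HCN replicate 2), 0 to 1 and 8 to 14 for the route differences. Saline groups over time gave 19 to 26 and air groups 7 to 10. Of 44 called changes, 22 kept their call whichever array was left out, 16 with the actin covariate, 21 in the fit of only the groups compared and 42 with the replicate block. Among calls on a gene's brightest probe set, another probe set had the opposite sign for Coa5 in KCN at 1 h (0.29), Cox7a2 in KCN at 24 h (0.014) and Cox6b1 in HCN at 2 h (-0.019) and 24 h (-0.0014). Among calls on other probe sets, the brightest had the opposite sign for Cox7a2l in KCN at 1 h and 24 h (0.08 and 0.06), Coa5 in KCN at 2 h and HCN at 24 h (-0.01 and 0.13), and Cox5a and Cox6c in HCN at 2 h (-0.06 and -0.03).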
